A study of Mus musculus with 6 samples.

Results

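The genes described here encode the subunits of the 5 complexes of oxidative phosphorylation, measured in cultured mouse spermatogonial stem cells given captopril or water. Earlier results of these data were known when these genes were taken up. Members were chosen by name, and no measured value entered the rule. They are the array probes whose RefSeq accession belongs to a symbol beginning with Ndufa, Ndufb, Ndufc, Ndufs, Ndufv, Sdha, Sdhb, Sdhc, Sdhd, Uqcr, Cox4i, Cox5, Cox6, Cox7, Cox8 or Atp5, with the complex I assembly factors named Ndufaf left out. This gave 118 probes for 89 genes, of 20284 named genes on the array. Genes were placed by the letters of the symbol, so Ndufa4 and its paralog Ndufa4l2 count under complex I. Complex I had 38 genes, complex II 4, complex III 8, complex IV 18 and complex V 17. The remaining 4, Sdhaf1 to Sdhaf4, begin with the letters of Sdha but are assembly factors of succinate dehydrogenase (SDH), so they are members by the rule and are given apart from the complex II subunits. A gene was tested where at least 1 of its probes was well above background, by the image analysis program's own call, on at least 3 of the 6 arrays. Of the 89 members 88 were tested, among 14883 genes in all, and each of the 88 was well above background on all 6 arrays. The exception was Cox8b, an isoform known from heart and skeletal muscle, which was not well above background on any array. The subunits encoded by mitochondrial DNA lie outside the rule.

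The cells came from dissociated mouse testis and were passaged on gelatin before transfer to plates with mouse embryonic fibroblasts as feeder cells. One group of 3 cultures received 0.01 M captopril, an inhibitor of angiotensin-converting enzyme, for 24 h, and the other 3 received sterile water for 24 h. The labels print 0.01 M for the water too, and what that refers to is not stated. No genotype, strain or animal age is stated either, and the samples are called independent without saying whether they came from separate animals. The p-values therefore measure only the spread between these cultures, which may be technical. Both groups carry the replicate numbers 2, 3 and 4.

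Oxidative phosphorylation passes electrons from NADH (complex I) and succinate (complex II) through coenzyme Q to complex III, and through cytochrome c to complex IV, where oxygen is reduced. Complexes I, III and IV pump protons across the inner mitochondrial membrane, and complex V, the ATP synthase, uses that gradient to make ATP. Spermatogonial stem cells are known for a comparatively glycolytic metabolism, with oxidative phosphorylation taking a larger place as germ cells differentiate.

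All levels below are log2 of the processed spot signal minus the 75th percentile of the array, so 0 is the level of a probe at that percentile. A fold change is the captopril mean minus the water mean on that scale, with its standard error (SE) from the limma fit over all 14883 genes, and all adjusted p are two-sided limma values after Benjamini-Hochberg adjustment over the same genes. Water replicate 3 stood apart from the other arrays. Over 32433 probes its correlation with each of them was 0.878 to 0.893, against 0.970 to 0.991 among the other 5, and 52.2% of its spots were well above background against 57.3% to 60.5%. It is one of the 2 arrays in slide row 1, with water replicate 2, while water replicate 4 and all captopril arrays lie in row 2. Most results are therefore given both with all 6 arrays and without water replicate 3. Some fold changes are given only without that array, where this is said.

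No member passed an adjusted p of 0.05. With 6 arrays the count was 0 of 88, with a background of 0% of all genes tested, and the smallest adjusted p of a member was 0.589. With water replicate 3 left out it was again 0 of 88, with a background of 0.611% (91 genes), and the smallest adjusted p of a member was 0.180. Before adjustment, 4 members were lower after captopril at a p under 0.05 with 6 arrays, namely Ndufab1, Ndufa4l2, Cox4i2 and Atp5md, and 0 were higher. That is 4.55% of the members lower, against 4.92% of all genes lower and 3.31% higher. In the other comparison the 4 were Ndufab1, Ndufa4l2, Cox4i2 and Cox7a1, and again 0 were higher, against 6.99% of all genes lower and 12.1% higher.

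The intervals describe the fold changes between these cultures under this scaling, and do not cover other cultures or other scalings. With 6 arrays the 95% interval of the fold change lay within 2-fold either way for 62 of 88 members (70.5%), against 48.9% of all genes tested. Without water replicate 3 it did so for 84 of 88 (95.5%), against 81.2%. The 4 exceptions were Sdhd, Cox4i2, Cox7b2 and Atp5md, each of which reached past a 2-fold lower level. All 38 members placed in complex I and all 8 of complex III lay within 2-fold in that comparison. The same held for 15 of 17 in complex IV and 16 of 17 in complex V.

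**Figure D1:**
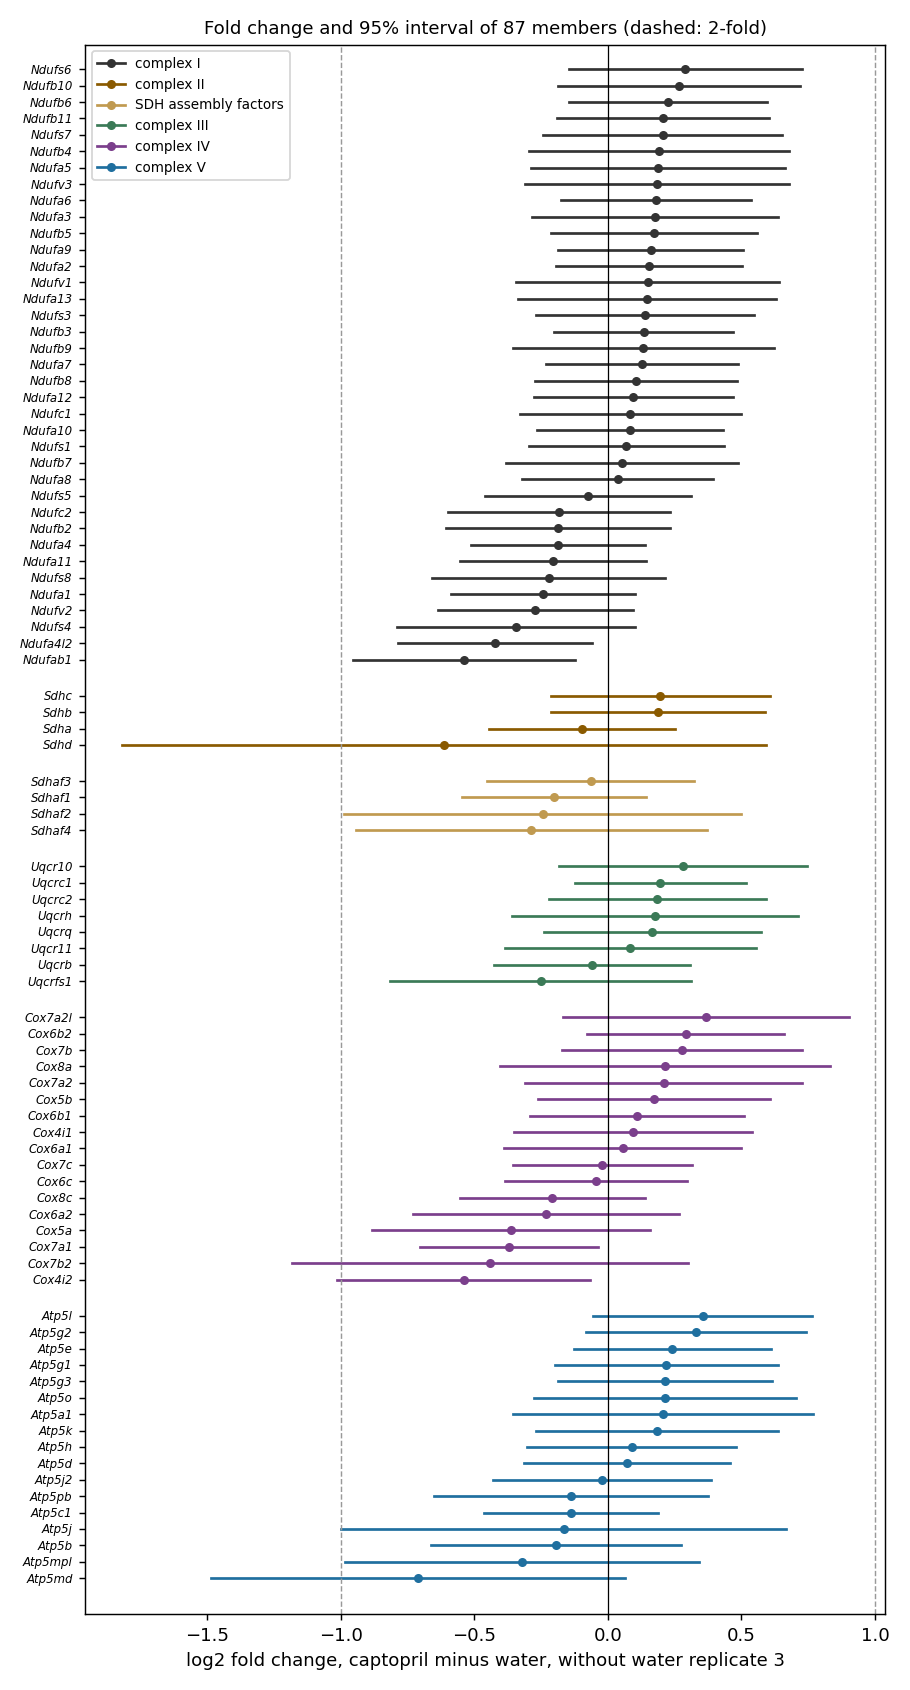
Fold change (log2, captopril minus water) of 87 tested members without water replicate 3, with points for the estimate and bars for the 95% interval, grouped by complex; dashed lines mark 2-fold lower and 2-fold higher. The bars of 83 members stay between the dashed lines, and those of Ndufab1, Ndufa4l2, Cox4i2 and Cox7a1 do not reach 0.

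The direction of the members as a group turned with a single water array. The median log2 fold change over the 88 was −0.08 with 6 arrays, against −0.03 over all genes tested, and 0.10 without water replicate 3, against 0.07 over all genes. With 6 arrays 22 of 88 members were positive (25%, against 46.8% of all genes). The 5 remaining arrays gave 54 (61.4%, against 58.5%). Of the 88, 34 were negative with 6 arrays and positive without that array, 2 turned the other way, 32 were negative in both and 20 positive in both. The split also moved with the scaling. When arrays were scaled by their median, 3 of 88 were positive with 6 arrays and 39 without water replicate 3, and with quantile normalization the counts were 28 and 36.

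By complex the medians with 6 arrays were −0.06 for complex I, −0.16 for II, −0.07 for III, −0.18 for IV and −0.18 for V. Without water replicate 3 they were 0.13 for complex I, 0.05 for II, 0.17 for III, 0.06 for IV and 0.09 for V. The 5 complexes thus had the same sign as each other within each comparison, and all 5 changed sign between the comparisons. This depended on the scaling, since without water replicate 3 the medians of complexes I, II, IV and V were below 0 both with quantile normalization and with arrays scaled by their median, and that of complex III above 0 (0.01 and 0.04). The 4 SDH assembly factors stood at −0.19 and −0.22.

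**Figure D2:**
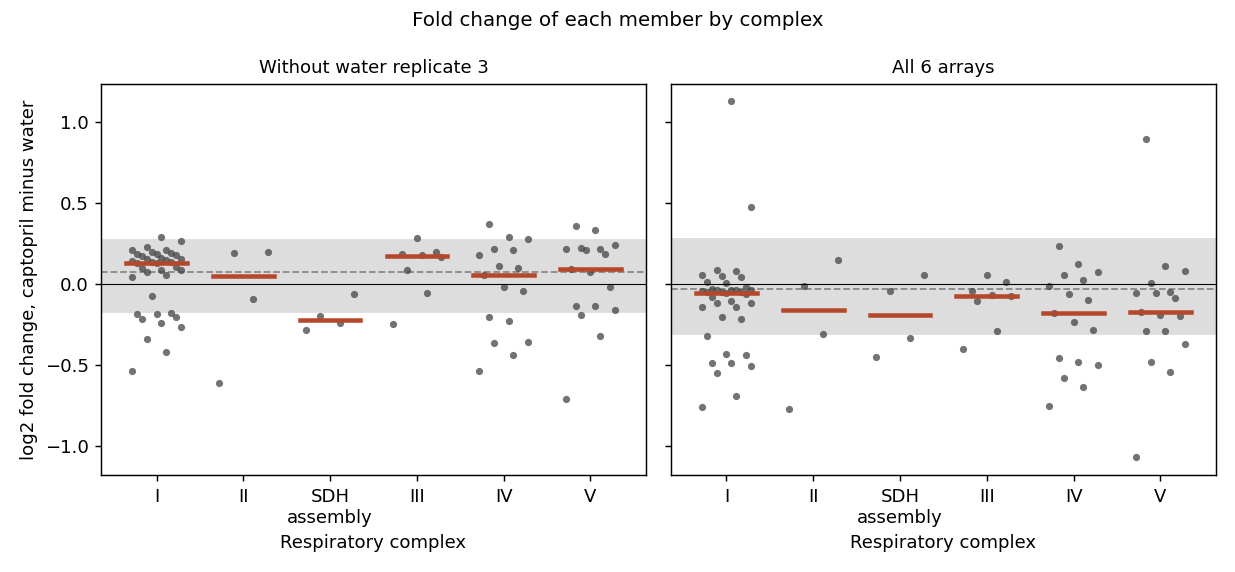
Fold change (log2, captopril minus water) of each tested member (points) by complex, without water replicate 3 on the left and with all 6 arrays on the right; red bars are medians, the dashed line is the median of all genes tested and the grey band runs from their 25th to their 75th percentile. The median bars of all 5 complexes lie above 0 on the left and below 0 on the right; with quantile normalization or median scaling only complex III would lie above 0 on the left.

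With each gene centred on its own 6-array median, the median member stood at −0.12, 0.02 and 0.17 on captopril replicates 2, 3 and 4, and at −0.01, 0.53 and −0.08 on water replicates 2, 3 and 4. The captopril arrays thus spanned both sides of water replicates 2 and 4, and only water replicate 3 lay beyond them. Over all genes tested the same medians were −0.03, 0.00 and 0.09 for captopril and −0.01, 0.36 and −0.07 for water, so captopril replicate 4 was the highest captopril array and water replicate 3 the highest of all here as well. Water replicate 3 was the highest water array for 77 of 88 members (87.5%, against 65.9% of all genes). Captopril replicate 4 was the highest captopril array for 56 of 88 (63.6%, against 56.7%), and captopril replicate 2 the lowest for 57 (64.8%, against 46.5%). The median SD of a member was 0.19 over the captopril arrays and 0.39 over the water arrays, and 0.09 over water replicates 2 and 4.

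**Figure D3:**
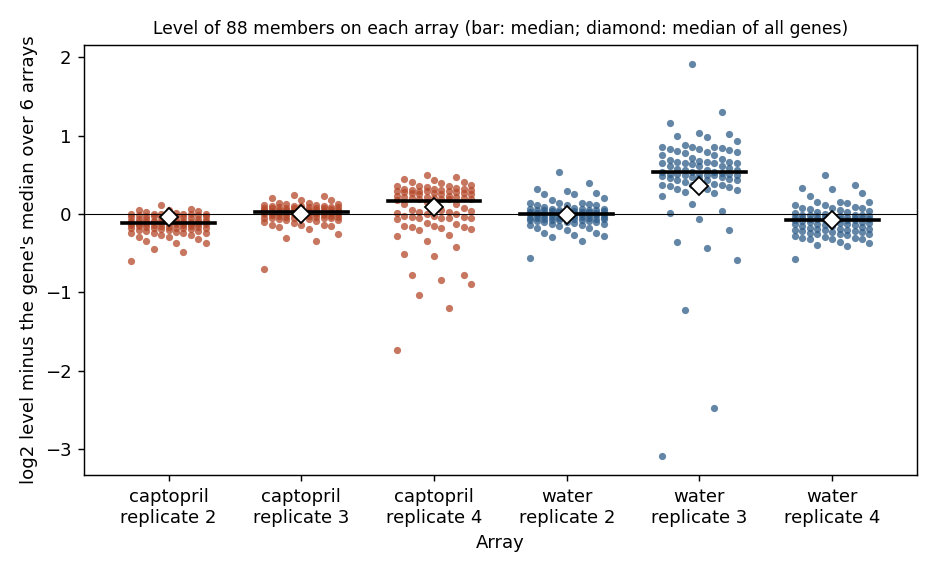
Log2 level of each of the 88 tested members minus its own median over the 6 arrays (points, vertical axis), by array; bars are the medians of the members and diamonds the medians of all genes tested. Water replicate 3 has its bar at 0.53, above its diamond at 0.36, and the bars of the other 5 arrays lie between −0.12 and 0.17.

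In 13 members all captopril arrays lay below all water arrays (14.8%, against 11.4% of all genes tested), and in 0 members above them (against 10%). They were Ndufa1, Ndufa4, Ndufa4l2, Ndufab1, Ndufs4 and Ndufv2 of complex I, Cox4i2, Cox5a, Cox7a1 and Cox8c of complex IV, and Atp5b, Atp5c1 and Atp5md of complex V. None belonged to complex II or III. Without water replicate 3 the counts were 15 below (17%, against 15.7%) and 13 above (14.8%, against 27.2%). Ndufa1, a small membrane subunit, is named because of its values.

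In complex I, the NADH dehydrogenase, the smallest p in both comparisons was that of Ndufab1. It encodes the mitochondrial acyl carrier protein, which is a subunit of the complex and also serves mitochondrial fatty acid synthesis. Its level was −1.10, −0.85 and −0.66 on captopril replicates 2, 3 and 4, and −0.31, 0.35 and −0.36 on water replicates 2, 3 and 4. Every captopril array lay below every water array, with or without water replicate 3. The fold change was −0.77 (SE 0.28, adjusted p = 0.589 by limma) with 6 arrays and −0.54 (SE 0.18, adjusted p = 0.180) without water replicate 3. The 95% interval in the second comparison ran from −0.96 to −0.12.

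Ndufa4l2 is a paralog of Ndufa4 known as a hypoxia-induced gene. Its level was 1.35, 1.54 and 1.60 on captopril replicates 2, 3 and 4, and 1.84, 2.18 and 1.99 on water replicates 2, 3 and 4. The groups did not overlap, and the nearest pair was captopril replicate 4 and water replicate 2. The fold change was −0.51 (SE 0.22) with 6 arrays and −0.42 (SE 0.15, adjusted p = 0.214 by limma) without water replicate 3. Ndufa4 itself, named for complex I and since assigned to complex IV, was at 3.30, 3.35 and 3.36 with captopril and 3.56, 4.28 and 3.49 with water. Its groups did not overlap either, with a fold change of −0.44 (SE 0.27) with 6 arrays and −0.19 (SE 0.14) without water replicate 3. Ndufs4, an accessory subunit of the NADH-oxidizing arm whose loss causes a Leigh-like disease in mice, was at 3.04, 3.40 and 2.89 with captopril and 3.47, 4.09 and 3.44 with water. The gap between captopril replicate 3 and water replicate 4 was small beside the spread of the captopril arrays, and the fold change was −0.55 (SE 0.28) and −0.34 (SE 0.19, adjusted p = 0.357).

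Core subunits of complex I encoded in the nucleus carry its flavin and iron-sulfur centres. The fold changes of the 6 given here ran from −0.49 to 0.08 with 6 arrays, with 2 of 6 positive (46.8% of all genes tested). Without water replicate 3 they ran from −0.27 to 0.21, with 4 of 6 positive (58.5% of all genes). The adjusted p in that comparison were 0.371 to 0.822. The lowest was Ndufv2, an iron-sulfur subunit, at 4.33, 4.24 and 4.05 with captopril and 4.45, 5.14 and 4.50 with water. Ndufs8, another iron-sulfur subunit, was the other negative one without water replicate 3, at −0.22 (SE 0.18), with overlapping groups. Ndufs7 and Ndufs3, also of the arm that transfers electrons to coenzyme Q, stood at 0.08 and −0.06 with 6 arrays. Without water replicate 3 they stood at 0.21 (SE 0.19) and 0.14 (SE 0.17). Ndufv1, which binds NADH and the flavin, and Ndufs1 stood at −0.05 and −0.21 with 6 arrays. Without water replicate 3 they stood at 0.15 (SE 0.21) and 0.07 (SE 0.15).

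Ndufa10 and Ndufs5, accessory subunits named because of their values, had 6-array values that rested on water replicate 3, Ndufa10 because it was low there (2.40) and Ndufs5 because it was high (3.96). Their fold changes were 0.48 and −0.69 with 6 arrays, and 0.08 and −0.07 without water replicate 3.

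Complex II, succinate dehydrogenase, is a part of the tricarboxylic acid cycle as well. Sdha, the flavoprotein, was at 2.91, 2.97 and 2.76 with captopril and 3.02, 3.62 and 2.93 with water, so captopril replicate 3 lay above water replicate 4. Sdhb, the iron-sulfur subunit, was at 3.77, 3.76 and 4.12 with captopril and 3.67, 4.29 and 3.71 with water. Its captopril arrays lay above water replicates 2 and 4 and below water replicate 3, and the fold change was −0.01 with 6 arrays and 0.19 (SE 0.17) without that array.

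Sdhc and Sdhd anchor the complex in the membrane. Sdhc was at 2.74, 2.88 and 3.10 with captopril and 2.82, 2.85 and 2.59 with water, with a fold change of 0.15 (SE 0.22) and 0.20 (SE 0.17). Sdhd was at 2.99, 3.21 and 1.40 with captopril and 3.24, 3.63 and 3.05 with water. A single array, captopril replicate 4, was low, and the SD over the captopril arrays, 0.98, was the largest among the members. The fold change of Sdhd was −0.77 (SE 0.49) with 6 arrays and −0.61 (SE 0.51, adjusted p = 0.527) without water replicate 3. When captopril replicate 4 was left out instead of water replicate 3 it was −0.21, and with both left out −0.05. The assembly factors Sdhaf4 and Sdhaf2 were also lowest on captopril replicate 4, at 1.33 and −1.31.

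Complex III, the cytochrome bc1 complex, had groups apart in 0 of 8 members with 6 arrays (all genes: 11.4% lower, 10% higher). Uqcrc1, one of its core proteins, was at 3.50, 3.53 and 3.51 with captopril and 3.33, 4.05 and 3.31 with water. Its captopril arrays lay above water replicates 2 and 4 and below water replicate 3, and the fold change was −0.05 (SE 0.27) with 6 arrays and 0.20 (SE 0.14, adjusted p = 0.450) without that array. The other core protein, Uqcrc2, gave −0.07 and 0.19, and the small subunit Uqcr10 gave 0.05 and 0.28.

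Uqcrfs1, the Rieske iron-sulfur protein, was at 1.22, 0.89 and 1.18 with captopril and 0.99, 1.48 and 1.69 with water. The groups overlapped, and the fold change was −0.30 (SE 0.26) with 6 arrays and −0.25 (SE 0.24) without water replicate 3. Uqcrb, a small subunit next to the coenzyme Q site, gave −0.40 (SE 0.33) and −0.06 (SE 0.16), and Uqcr11 gave −0.11 and 0.08.

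Complex IV, cytochrome c oxidase, held 4 of the 13 members whose groups were apart with 6 arrays. That is 4 of its 17 tested members, beside 6 of 38 in complex I, 3 of 17 in complex V and 11.4% of all genes tested. Cox4i2, known as an isoform of lung and of hypoxia, was at −3.24, −2.88 and −2.96 with captopril and −2.26, −2.19 and −2.72 with water. The groups did not overlap, and water replicate 4 was the water array nearest to captopril. The fold change was −0.64 (SE 0.25, adjusted p = 0.589 by limma) with 6 arrays and −0.54 (SE 0.20, adjusted p = 0.218) without water replicate 3. Cox7a1, the heart and skeletal muscle isoform, was at 2.32, 2.34 and 2.31 with captopril and 2.77, 2.96 and 2.62 with water. The captopril arrays lay close together and below every water array, with a fold change of −0.46 (SE 0.21) and −0.37 (SE 0.14, adjusted p = 0.227).

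Cox5a and Cox5b are subunits of the enzyme encoded in the nucleus. Cox5a was at 3.96, 3.42 and 4.07 with captopril and 4.18, 4.59 and 4.17 with water. Captopril replicate 3 was the low one, and captopril replicates 2 and 4 lay just under the water arrays. Its fold change was −0.50 (SE 0.27) and −0.36 (SE 0.22, adjusted p = 0.399), and that of Cox5b was 0.02 and 0.17. Cox4i1, the common isoform of subunit 4, gave −0.07 and 0.10, with overlapping groups.

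**Figure D4:**
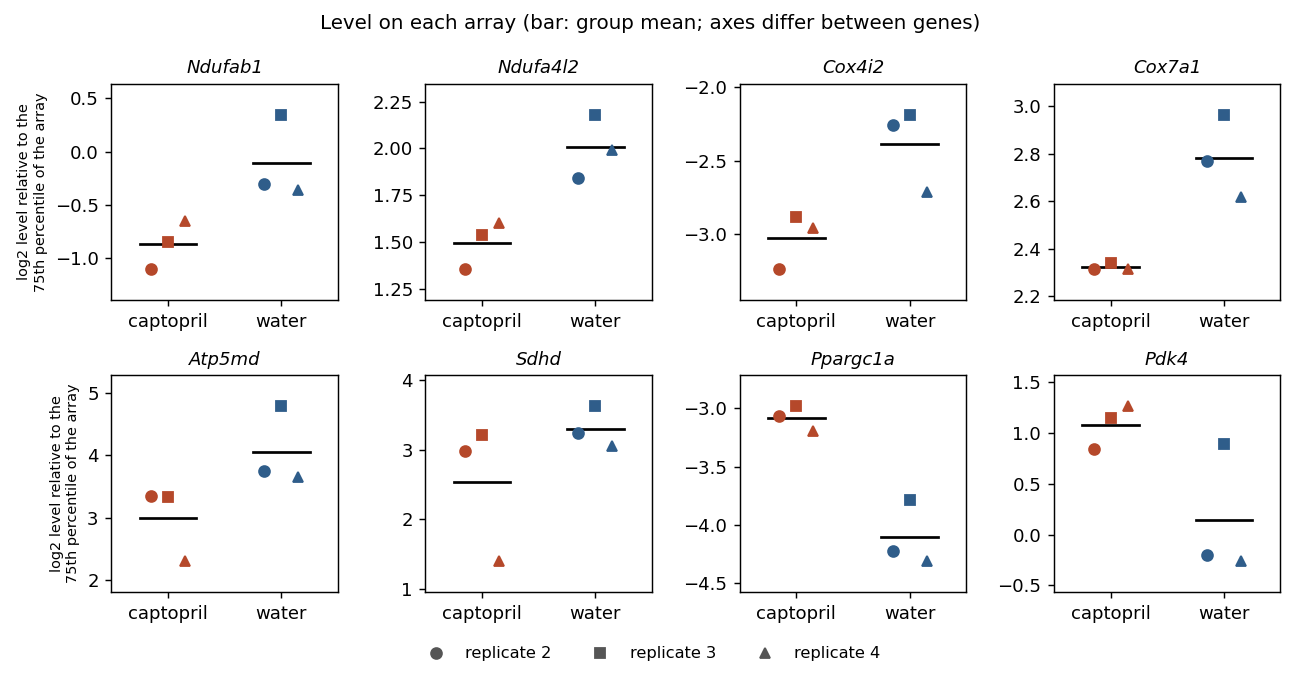
Log2 level relative to the 75th percentile of the array for 6 members and for the regulators Ppargc1a and Pdk4, with captopril left and water right in each panel, symbols for the replicate number and bars for the group mean; the vertical axes differ between genes. Captopril and water do not overlap in the panels of Ndufab1, Ndufa4l2, Cox4i2, Cox7a1, Atp5md and Ppargc1a, and they do in Sdhd and Pdk4.

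Tissue-restricted isoforms were set against the common isoform of the same subunit within each array, which removes any shift that both share. The 7 ratios were each taken relative to the mean of water replicates 2 and 4 and compared by a two-sided exact permutation test, in which 3 arrays against 3 cannot give a p under 0.1. Cox4i2 over Cox4i1 was −0.78, −0.36 and −0.76 with captopril, and 0.03, −0.18 and −0.03 with water. These groups did not overlap, with a difference of −0.58 (exact p = 0.1, adjusted p = 0.233 over 7 ratios), and −0.63 without water replicate 3. Cox6a2 over Cox6a1 was −0.24, −0.42 and −0.20 with captopril and 0.04, 0.60 and −0.04 with water, a difference of −0.49 (exact p = 0.1). Cox7b2 over Cox7b was −0.25, −0.37 and −1.53 with captopril and −0.03, 0.06 and 0.03 with water. Its difference of −0.74 (exact p = 0.1) took much of its size from captopril replicate 4. Cox7a1 over Cox7a2 differed by −0.28 (exact p = 0.4) with 6 arrays and by −0.58 (exact p = 0.2) without water replicate 3. Ndufa4l2 over Ndufa4 differed by −0.07 (exact p = 0.8) with 6 arrays, with overlapping groups, and by −0.24 (exact p = 0.1, where 3 arrays against 2 allow none lower) without water replicate 3, with groups that did not overlap. Cox6b2 over Cox6b1 differed by −0.02 (exact p = 0.9) with 6 arrays and by 0.18 (exact p = 0.2) without that array, and Cox8c over Cox8a by −0.72 and −0.42 (exact p = 0.2 in both). The groups of these last pairs overlapped in both comparisons. Without water replicate 3 the Cox6a2 and Cox7b2 ratios differed by −0.29 (exact p = 0.1) and −0.72 (exact p = 0.3). After adjustment over the 7 ratios no p was under 0.233 in either comparison.

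The other isoforms of complex IV had fold changes, with 6 arrays and then without water replicate 3, of −0.75 (SE 0.39) and −0.44 (SE 0.31) for Cox7b2 and −0.59 and −0.23 for Cox6a2. Cox8c, an isoform known from testis, gave −0.49 and −0.21, and Cox6b2, the testis isoform of subunit 6b, 0.05 and 0.29 (SE 0.16, adjusted p = 0.345). The common isoforms gave −0.10 and 0.06 for Cox6a1, 0.07 and 0.11 for Cox6b1, −0.18 and 0.21 for Cox7a2, −0.02 and 0.28 for Cox7b, and 0.23 and 0.22 for Cox8a. Cox7a2l, which takes part in joining complexes III and IV, gave 0.12 and 0.37 (SE 0.23).

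In complex V the lowest fold change in both comparisons was that of Atp5md, a small membrane subunit linked to the dimers of the enzyme. It was at 3.34, 3.33 and 2.30 with captopril and 3.75, 4.79 and 3.65 with water. The groups did not overlap, but captopril replicate 4 and water replicate 3 each stood over 1 log2 unit from both other arrays of their group, in opposite directions. The fold change was −1.07 (SE 0.42, adjusted p = 0.594 by limma) with 6 arrays and −0.71 (SE 0.33, adjusted p = 0.291) without water replicate 3. Without captopril replicate 4 it was −0.73, and with neither of these arrays −0.36. Atp5mpl, another small membrane subunit, was likewise lowest on captopril replicate 4, at 2.81 beside 3.59 and 3.72 on replicates 2 and 3 of that group, with a fold change of −0.55 (SE 0.33) and −0.32 (SE 0.28).

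The alpha, beta and gamma subunits of the ATP synthase are encoded by Atp5a1, Atp5b and Atp5c1. Atp5b was at 3.89, 3.87 and 3.38 with captopril and 3.89, 4.21 and 3.92 with water, so that captopril replicate 2 and water replicate 2 almost met. Atp5c1 was at 4.05, 4.01 and 4.04 with captopril and 4.21, 4.63 and 4.13 with water. The fold changes of Atp5b, Atp5c1 and Atp5a1 were −0.30, −0.29 and −0.06 with 6 arrays. Without water replicate 3 they were −0.19 (SE 0.20), −0.14 (SE 0.14) and 0.21 (SE 0.24). Atp5d, the delta subunit of the central stalk, gave 0.90 (SE 0.65) with 6 arrays, where water replicate 3 was at 1.48 against 4.06 and 3.83 on water replicates 2 and 4, and 0.07 (SE 0.16) without that array. Atp5g1, Atp5g2 and Atp5g3 encode the same ring protein through different leader peptides. They gave 0.00, 0.11 and −0.06 with 6 arrays and 0.22, 0.33 and 0.21 without water replicate 3. Atp5l, the g subunit, gave 0.08 and 0.36 (SE 0.17, adjusted p = 0.312), the smallest p among positive members in the second comparison. Cox7a2 and Atp5k, of which Atp5k is named because of its values, stood with Atp5md and Ndufs5 as the 4 members over 1 log2 unit higher on water replicate 3 than on the other water arrays.

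Of 19 subunits counted here as core, 4 fold changes were positive and 15 negative with 6 arrays. In that comparison 25% of all members and 46.8% of all genes tested were positive. Without water replicate 3, 11 were positive and 8 negative, beside 61.4% of all members and 58.5% of all genes positive. For complex IV the count took the nuclear subunits Cox4i1, Cox5a and Cox5b, since the subunits encoded by mitochondrial DNA were not measured. Over all 88 members the fold changes ran from −0.71 to 0.37 without water replicate 3.

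Different probes of the same gene gave an idea of the error of a single probe. Of the 22 members with more than 1 usable probe, 12 had probes of opposite sign with 6 arrays and 11 without water replicate 3. The median difference between the lowest and highest fold change of a gene's probes was 0.28 with 6 arrays and 0.26 without water replicate 3. The fold change of 57 of 88 members was smaller in size than the first of these, and that of 68 of 88 smaller than the second. Probes of opposite sign more than 0.5 apart were found for Cox7c, Ndufv3 and Sdhc with 6 arrays, and for Ndufb11 and Cox7c without water replicate 3. For Ndufb11 they gave −0.92 and 0.21, and for Cox7c −0.02 and 0.65. The first value for Cox7c and the second for Ndufb11 came from the brighter probe, which was the one used.

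Promoter sequences were examined because nuclear respiratory factor 1 (NRF1), ETS family factors of the GABP type (known as NRF2 in this field) and YY1 are the factors best known for binding at these genes. RefSeq windows of 250 bases upstream of a transcript start, from assembly GRCm38.p6, were at hand for 73 of the 89 members, 78 windows in all. The NRF1 motif, written as GCGC, any base and TGCGC, was searched on both strands and was found in 14 of 78 member windows (17.9%), against 3.74% of all 32851 windows. The ETS motif CCGGAAG, on both strands, was likewise found in 14 (17.9%), against 6.91%. The YY1 motif, AAGATGG followed by CGG on either strand, was found in 1 (1.28%), against 0.301%. The search counts exact letters, and a match is a description of the window only. The windows shown are that of Cox6a1 with matches to both NRF1 and ETS, and those of Ndufab1 and Cox7a1, the members with windows and an unadjusted p under 0.05 without water replicate 3, in which none of these letters were found. Capitals mark the matches to the NRF1 or ETS motif on either strand, and each sequence runs 5′ to 3′ on the strand of its gene up to the base before the transcript start. The windows are chr5:115348959-115349208 (minus strand) for Cox6a1, chr7:122101849-122102098 (minus strand) for Ndufab1 and chr7:30183921-30184170 (plus strand) for Cox7a1.
Cox6a1: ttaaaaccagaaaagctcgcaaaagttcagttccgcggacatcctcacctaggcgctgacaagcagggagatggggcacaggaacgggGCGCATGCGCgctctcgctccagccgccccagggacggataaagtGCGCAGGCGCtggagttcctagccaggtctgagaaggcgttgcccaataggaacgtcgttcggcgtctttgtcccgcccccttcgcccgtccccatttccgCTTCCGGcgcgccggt
Ndufab1: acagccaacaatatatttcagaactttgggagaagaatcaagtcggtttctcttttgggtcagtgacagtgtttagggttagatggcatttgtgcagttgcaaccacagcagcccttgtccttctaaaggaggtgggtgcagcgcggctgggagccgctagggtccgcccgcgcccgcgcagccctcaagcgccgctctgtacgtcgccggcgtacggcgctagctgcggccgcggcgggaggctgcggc
Cox7a1: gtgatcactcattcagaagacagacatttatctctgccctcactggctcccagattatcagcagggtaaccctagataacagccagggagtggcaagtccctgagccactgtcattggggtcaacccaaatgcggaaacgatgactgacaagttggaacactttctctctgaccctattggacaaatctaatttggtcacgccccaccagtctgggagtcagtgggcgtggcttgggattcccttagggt

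The members with an NRF1 match had a median fold change of −0.10 over 13 tested members with 6 arrays, against −0.05 over the 59 with a window and no match. Without water replicate 3 it was 0.06, against 0.11. For the ETS motif the medians were −0.09 over 14 with a match and −0.05 over 58 without one with 6 arrays, and 0.09 and 0.12 when water replicate 3 was left out.

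Genes that work with the complexes were counted in lists. Over all genes tested, 0% were called with 6 arrays, with 4.92% lower and 3.31% higher at an unadjusted p under 0.05. Without water replicate 3, 0.611% were called, with 6.99% lower and 12.1% higher at an unadjusted p under 0.05. Of the assembly factors of complexes I to V other than those of SDH, 40 of 44 were tested and 0 were called in either comparison, with 0 at an unadjusted p under 0.05 with 6 arrays and 1 higher and 1 lower without water replicate 3. These were Bcs1l, which inserts the Rieske protein into complex III, at 0.51 (SE 0.20), and Cox16, at −1.07 (SE 0.39, adjusted p = 0.210). With 6 arrays Bcs1l and Cox16 gave 0.38 (SE 0.26) and −0.74 (SE 0.45). Of cytochrome c, the ATP carriers and the coenzyme Q enzymes, 22 of 23 were tested and 0 were called, with 2 lower at an unadjusted p under 0.05 in both comparisons. The smallest p without water replicate 3 were those of Pdss1 and Coq7, both of coenzyme Q synthesis, at −0.54 (SE 0.15, adjusted p = 0.141) and −0.66 (SE 0.25). Of the mitochondrial ribosomal proteins, which make the subunits encoded in mitochondrial DNA, 75 of 77 were tested and 0 were called, with 4 lower and 0 higher at an unadjusted p under 0.05 in both comparisons. Mrpl28 and Mrpl50 gave −0.56 and −0.50 without water replicate 3.

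A single gene was called in each of the lists of tricarboxylic acid cycle and of regulators, both higher after captopril and both only when water replicate 3 was left out. Of 20 regulators of mitochondrial gene expression all were tested. Ppargc1a, which encodes the coactivator PGC-1alpha known for driving genes of oxidative phosphorylation, was well above background on all 6 arrays, at −3.07, −2.98 and −3.19 with captopril and −4.23, −3.78 and −4.31 with water. Every captopril array lay above every water array, water replicate 3 included. The fold change was 1.03 (SE 0.24, adjusted p = 0.455 by limma) with 6 arrays and 1.19 (SE 0.15, adjusted p = 0.0418) without water replicate 3. Under 16 alternatives of the second comparison it ran from 0.84 to 1.24 and was called in 3. Its relative Ppargc1b was at −3.45, −3.34 and −3.35 with captopril and −2.89, −2.88 and −2.63 with water, with a fold change of −0.58 (SE 0.21) and −0.62 (SE 0.15, adjusted p = 0.109). The 2 coactivator genes thus lay on opposite sides of water, Ppargc1b short of the threshold.

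Pdk4, a kinase that shuts pyruvate dehydrogenase and so limits the entry of pyruvate into the cycle, was at 0.84, 1.14 and 1.26 with captopril and −0.20, 0.89 and −0.26 with water. Water replicate 3 fell among the captopril arrays, and the other 2 water arrays lay well below. The fold change was 0.94 (SE 0.35) with 6 arrays and 1.31 (SE 0.17, adjusted p = 0.0433 by limma) without water replicate 3. In that comparison Pdk4 was called under 7 of 16 alternatives, among them the replicate block, whose variance was shared by genes. Dlat, a subunit of pyruvate dehydrogenase, gave −0.90 (SE 0.29) and −0.62 (SE 0.14, adjusted p = 0.0945), and all captopril arrays lay below all water arrays. The other 25 of 26 genes of that list, Dlat included, were not called. In this bulk RNA fewer cells of a type and less RNA per cell cannot be told apart.

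Markers of the cells in the culture were measured beside the members. All 14 germ cell and spermatogonial markers were tested, with a summed level on the linear scale, relative to the 75th percentile, of 87.2 to 109 on captopril arrays and 83.1 to 116 on water arrays. All 16 fibroblast feeder markers were tested as well, with a sum of 179 to 217 on captopril arrays and 189 to 358 on water arrays, the 358 being water replicate 3. Their median fold change was −0.44 with 6 arrays and −0.22 without water replicate 3, with 0 called. Of the 16, 5 and 6 were lower at an unadjusted p under 0.05 and 0 higher, against 4.92% and 6.99% of all genes lower. Of the Sertoli cell markers Amh, Gata4, Fshr and Cldn11 were not measured well enough to be tested. The part of feeder RNA in the values of Ndufab1, Ndufa4l2, Cox4i2, Cox7a1 and the other members was not tested.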

How the data were processed

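RNA from 3 captopril and 3 water cultures was labelled with Cy3 and hybridised to single-colour Agilent arrays, per the labels' protocols. The intensity values deposited by the authors are processed signals of Agilent Feature Extraction, which subtracts background within each array. Its version is 11.5.1.1 per the file headers and 10.7 per the submitters' processing notes. The authors also deposited a log2 table of the same arrays, made by steps that the labels do not describe, and it served only as an alternative. Of 55681 probes, 26762 were named through their RefSeq accession in the gene table of GRCm38.p6 (98.1% of curated accessions matched), and 28919 stayed unnamed. No array coordinates are given, since the array design names another assembly.

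Processed signals were taken to log2, and the 75th percentile of each array was subtracted. A gene was represented by its brightest probe among those with a signal well above background on 3 or more arrays. The groups were compared across 14883 genes with limma 3.58.1 (lmFit and eBayes) in R 4.3.3, calling genes at a Benjamini-Hochberg adjusted p under 0.05, on all 6 arrays and without water replicate 3. All code that fits models was first tested on simulated data. Precision is limited by having 3 arrays a group. The members, gene lists, comparisons and alternatives were chosen with earlier results of these data known. Members named are the subunits counted as core (for complex IV Cox4i1, Cox5a and Cox5b), those with isoforms and those past the threshold. Also named are those with the 3 smallest p of each complex in each comparison and those whose probes disagree in sign by over 0.5. A member that falls under this rule is not reported here. It stays in counts and medians over members and is left out of the plot of intervals, which therefore shows 87 of the 88. Of each other mitochondrial list the 2 genes with the smallest p without water replicate 3 are named. The labels do not say what the replicate numbers mark, and the numbers were not used as pairs. Same-numbered arrays had correlations of their deviations from the group means of −0.015, 0.022 and −0.19 for numbers 2, 3 and 4. These cannot tell whether such arrays share a culture, since the water mean included water replicate 3, which stood apart. The alternatives were quantile normalization, normexp on median signals (offset 50), array-median scaling, the authors' table, no filter on dim probes or one on all arrays, probe means per gene, robust eBayes with a variance trend, a block for the replicate number or the slide row, slide row 2 alone, and each array left out. Plots used matplotlib 3.10.9, and tables Python 3.11.15, numpy 2.4.6 and pandas 2.3.3.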

Additional observations from a re-analysis of the deposited data

How the results depend on the processing

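No member was called under any of the 17 alternatives with 6 arrays or the 16 without water replicate 3, where the smallest adjusted p of a member were 0.180 and 0.0894. The 0.180 came from leaving out water replicate 3, which repeats the second comparison. In the second comparison the slide row block, row 2 alone and leaving out water replicate 2 gave the same fold changes. They are not separate checks, since each sets captopril against water replicate 4 alone. The medians moved with scaling. With arrays scaled by their median, 6 arrays gave −0.38 over the members, −0.36 for complex I, −0.46 for II, −0.37 for III, −0.48 for IV and −0.48 for V, while the median of all genes was −0.33. Without water replicate 3 this scaling gave −0.037 over the members, −0.0037 for complex I, −0.086 for II and −0.042 for V, with −0.06 over all genes. Quantile normalization without water replicate 3 gave −0.033 over the members, −0.016 for complex I, −0.061 for II, 0.012 for III, −0.14 for IV and −0.066 for V, with 0.00 over all genes. With the slide row as a block or row 2 alone, the median was 0.21 for complex IV from both starting sets and 0.13 for complex V from 6 arrays, values that rest on a single water array. Leaving out each array in turn gave −0.23 to 0.10 over the members with 6 arrays, with −0.21 to 0.13 for complex I, −0.27 to 0.05 for II, −0.18 to 0.17 for III, −0.38 to 0.06 for IV and −0.29 to 0.09 for V. The upper end of each was the value without water replicate 3. Without that array, leaving out another gave 0.01 to 0.16 over the members, 0.02 to 0.18 for complex I, −0.029 to 0.067 for II, 0.04 to 0.23 for III, −0.10 to 0.21 for IV and 0.04 to 0.17 for V. The cause of these shifts was not tested. With the replicate number as a block, the median over the members was −0.08 with 6 arrays and 0.11 without water replicate 3, and 0 members were called. Without water replicate 3 the SE with that block was the same, 0.347, for Ndufab1, Sdhd, Ppargc1a and Pdk4. Calls there rest on a variance shared by genes, not on each gene's own spread. The 91 calls over all genes without water replicate 3 became 215 with that block, 62 with normexp, 39 with scaling by the median, 114 with the filter on all arrays, 134 with the mean of probes, 75 with the authors' table, 71 with the variance trend, and 0 with quantile normalization, no filter or a slide row block. Leaving out captopril replicate 2 as well gave 36, and leaving out any other second array 0. Of the single members' values, 234 of 1496 with 6 arrays and 75 of 1408 without water replicate 3 changed sign, none of them called.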
